A study of Carassius auratus with 6 samples.

Results

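Genes of the MHC antigen presentation pathway were examined in golden and in greenish grey skin. The fish were golden-back crucian carp (Carassius auratus, the species of the goldfish). Gene rows were chosen from the deposited table by their product names, without use of any measured value: products with histocompatibility in the name (minor histocompatibility antigens left out), and products named beta-2-microglobulin, antigen peptide transporter, tapasin, MHC class II or proteasome subunit beta type-8. This gave 145 of the 83088 gene rows. Earlier results of these data were known when the genes were chosen. Messenger RNA was sequenced in 6 skin libraries of female fish, 3 from golden and 3 from greenish grey skin, with no treatment and no engineered allele in either group. The titles number the libraries 1 to 3 in each colour. The labels give neither the age of the fish nor whether a golden and a greenish grey library with the same number came from the same fish, and p-values here measure the spread between these libraries only. The question asked of the data was whether skin of either colour expressed more of these genes.

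MHC molecules carry fragments of proteins to the cell surface, where T cells inspect them. In the class I route, proteins of the cell's own cytoplasm are cut by a proteasome, which in immune or interferon-exposed cells holds the beta type-8 subunit. The fragments are pumped into the endoplasmic reticulum by the antigen peptide transporter (TAP1 with TAP2), loaded with the help of tapasin onto a class I heavy chain paired with beta-2-microglobulin, and shown by nearly every nucleated cell. In the class II route, an alpha and a beta chain are guarded by the gamma or invariant chain until they meet fragments of engulfed material in lysosomes, and this route is used mainly by macrophages, dendritic cells and B cells. In mammals the class II transactivator switches the class II genes on. In bony fishes the main class I and class II genes mostly lie on different chromosomes, unlike in mammals, and gene copies are many.

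The skin libraries held between 51493103 and 67595616 counts each. The share of counts from melanophore markers was 0.00104 to 0.00156% in golden and 0.00422 to 0.0151% in greenish grey libraries. These shares did not overlap, so that the labelled colour was visible. The share from epidermal markers was 0.429 to 2.72% in golden and 0.849 to 2.35% in greenish grey libraries, so that epidermis was present in each library. The share from skeletal muscle markers was 3.03 to 12.3% in golden and 2.32 to 8.40% in greenish grey libraries, highest in library 1 of each colour. Muscle markers exceeded epidermal markers in every library but greenish grey library 2 (2.32 against 2.35%). Libraries with the same number resembled each other across the whole table, which is described with its test further on.

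Many of the annotated copies had few or no counts, as did many rows of the whole table. Of the 145 genes, 42 (29.0%) had no count in any library, 52 had counts but a mean under 1 FPKM (fragment counts per unit of gene length and of sequencing depth), and 51 (35.2%) had a mean of at least 1 FPKM and were tested. Over the whole table, 38.1% of the rows had no count and 31.8% were tested. All 6 tapasins and all 3 invariant chains were tested, as were 6 of 8 beta-2-microglobulins, 4 of 7 peptide transporters, 4 of 7 class II transcription factors, and 2 of 3 proteasome beta type-8 genes. Among the chains that bind peptide, 12 of 39 class I chains, 4 of 12 class II alpha chains and 4 of 18 class II beta chains were tested. The class I-related genes, annotated after MR1, were the most silent family: 21 of 42 had no count and 6 were tested. RefSeq annotates 14 of the 145 genes as pseudogenes and 4 as long non-coding RNAs.

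The annotated positions on the goldfish assembly ASM336829v1 showed the genes in groups. Chromosomes held 83 of them and 29 unplaced scaffolds the other 62. When genes at most 100 kb apart were joined, 61 of the 145 lay in 14 groups of 3 or more. Chromosome 19 held 15 genes and chromosome 44 held 12. The group at chromosome 19:17562896-17719794 put together a TAP2, a proteasome beta type-8 gene and 4 class I chains, and 5 of its 6 genes were tested. The group at chromosome 44:13942346-13991094 put together tapasin (tapbp), the more abundant proteasome beta type-8 gene and 2 class I chains. Some class II alpha and beta chains lay next to each other elsewhere, as on chromosome 28:18090398-18105721 and on the unplaced scaffold that carries LOC113070742 and LOC113070741. Other groups held class I and class II chains together. The group at chromosome 44:12826115-12918749 had 3 class I chains, 1 class I-related gene and 1 class II beta chain, none of them tested. The unplaced scaffold of the class I chain LOC113102785 also carried 1 class II beta chain.

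No difference between golden and greenish grey skin in the 51 genes passed adjustment for all genes tested. None of them reached an adjusted p under 0.05 in the quasi-likelihood test of edgeR or in DESeq2. The share of all 26421 tested genes that did so in edgeR was 0.00%, and that share is not given here for DESeq2. At an unadjusted p under 0.05, 1 of the 51 was called by edgeR, against 4.40% of all tested genes, and 2 by DESeq2, against 7.0% of all tested genes in that fit. The edgeR gene was lower in golden skin by more than 2-fold, a call that 1.51% of all tested genes had, and no gene of the 51 was higher past 2-fold, where the share of all tested genes was 1.26%. Most of the other differences were small and lay below 0. The fitted log2 fold change of golden over greenish grey skin was negative in 37 of 51 genes (72.5%), against 46.8% of all tested genes, and its median was -0.189, against 0.0311 over all tested genes. The size of that lean depended on the libraries used. Without greenish grey library 3 alone, 25 of 51 genes (49.0%) were negative, against 43.7% of all tested genes, and the median was 0.0454, against 0.0754 over all tested genes. Without both libraries numbered 3, 33 of 51 (64.7%) were negative, against 54.7% of all tested genes, and the median was -0.135, against -0.062 over all tested genes. With the replicate number as a block, 34 of 51 (66.7%) were negative, against 50.5% of all tested genes. Scaled counts were lower in golden skin in all 3 numbered pairs for 15 of the 51 genes (29.4%), against 20.0% of all tested genes, and higher in all 3 for 3 genes, against 19.5%. In the block model 3 of the 51 had an unadjusted p under 0.05, against 13.0% of all tested genes. In that model 1 gene was lower past 2-fold, against 2.63% of all tested genes, and none was higher, against 2.42%.

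**Figure D1:**
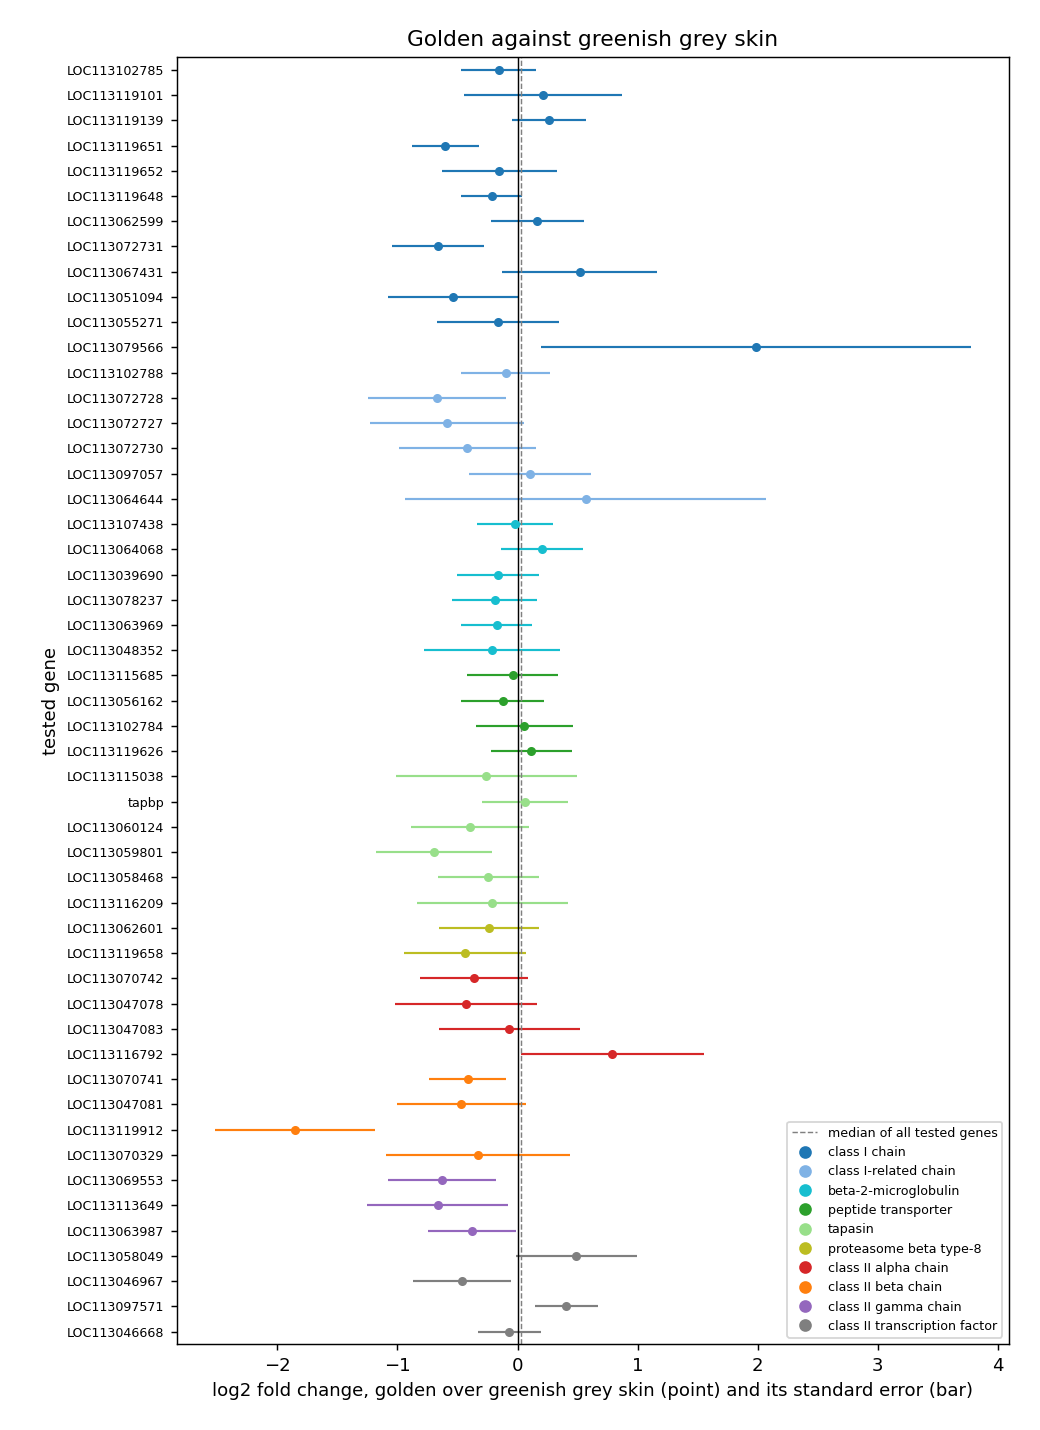
Fitted log2 fold changes of golden over greenish grey skin (points, x axis) with their standard errors (bars) for the 51 tested genes (y axis), coloured by family, each from 3 golden and 3 greenish grey libraries. Most points lie between -0.7 and 0.6, and LOC113119912, a class II beta chain, lies lowest at -1.85 with an SE of 0.67, while the class I chain LOC113079566 lies highest at 1.98 with an SE of 1.79.

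The gene called lower in golden skin was LOC113119912, a class II beta chain annotated after a pig DQ gene, at chromosome 19:24707047-24714468 on the minus strand. It had 0.248, 0.409 and 1.54 FPKM in golden libraries 1 to 3, against 2.80, 1.51 and 3.75 FPKM in greenish grey libraries 1 to 3. Golden libraries 1 and 2 were lowest, while golden library 3 was slightly above greenish grey library 2, so that the groups overlapped in FPKM. On counts scaled for library size and composition the golden libraries were all lower than the greenish grey ones, which held for 3 of the 51 genes and for 5.08% of all tested genes. The log2 fold change was -1.85 (SE 0.67, edgeR unadjusted p under 0.05, adjusted p = 0.9998). With the replicate number as a block it was -1.99 (adjusted p = 0.284). The call was lost on leaving out golden library 1 (log2 fold change -1.54), golden library 2 (-1.60), greenish grey library 1 (-1.73) or greenish grey library 3 (-1.65). In the same group, at chromosome 19:24707047-24811242, the annotation places a TAP2 and a class I-related gene, neither of which reached a mean of 1 FPKM.

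The other genes lower in every golden library on scaled counts, named after their values were seen, were class I chains. LOC113119651, in the chromosome 19 group, had 2.47, 3.04 and 3.45 FPKM in golden libraries, against 5.45, 3.94 and 5.33 FPKM in greenish grey libraries, and its log2 fold change was -0.60 (SE 0.28, adjusted p = 0.9998 by edgeR). LOC113072731, on an unplaced scaffold, had 1.35, 0.864 and 1.59 FPKM in golden libraries, against 2.33, 2.16 and 2.19 FPKM in greenish grey libraries, and its log2 fold change was -0.66 (SE 0.39, adjusted p = 0.9998 by edgeR). For both genes every greenish grey library was above every golden one, and neither passed the test. In the opposite direction, 1 gene of the 51, LOC113097571, was higher in every golden library on scaled counts, against 4.99% of all tested genes.

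The class II route was carried in FPKM mainly by its invariant chain. LOC113069553, the most abundant of the 3 invariant chain genes, had 350.4, 402 and 327 FPKM in golden libraries 1 to 3, against 574, 890.1 and 405 FPKM in greenish grey libraries 1 to 3. All golden libraries were below all greenish grey ones in FPKM, but on scaled counts the groups overlapped, and greenish grey library 3 was close to the golden range on both scales. The log2 fold change was -0.63 (SE 0.45, adjusted p = 0.9998 by edgeR). LOC113113649, on chromosome 14:12474808-12479781, had 145, 169.9 and 98.6 FPKM in golden libraries, against 233, 404 and 106 FPKM in greenish grey libraries. Library 3 was the lowest of each colour, and the log2 fold change was -0.67 (SE 0.59, adjusted p = 0.9998 by edgeR). LOC113063987, on chromosome 46:6172186-6174519, had 35.9, 43.4 and 36.8 FPKM in golden libraries, against 47.2, 83.8 and 38.3 FPKM in greenish grey libraries, with a log2 fold change of -0.38 (SE 0.37, adjusted p = 0.9998 by edgeR). All 3 invariant chain genes were highest in greenish grey library 2, and none passed the test.

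The peptide-binding class II chains were far less abundant in FPKM than the invariant chain. LOC113070741, the most abundant class II beta chain, had 15.2, 13.2 and 15.2 FPKM in golden libraries 1 to 3, against 18.0, 30.1 and 17.6 FPKM in greenish grey libraries 1 to 3. The groups did not overlap in FPKM and overlapped on scaled counts, and the log2 fold change was -0.41 (SE 0.32, adjusted p = 0.9998 by edgeR). Its neighbour LOC113070742, the most abundant alpha chain, had 10.2, 8.86 and 8.52 FPKM in golden libraries, against 15.6, 16.7 and 7.17 FPKM in greenish grey libraries. Here greenish grey library 3 was the lowest of all 6, and the log2 fold change was -0.36 (SE 0.45, adjusted p = 0.9998 by edgeR). The alpha and beta pair on chromosome 28, LOC113047078 and LOC113047081, moved between libraries much alike. LOC113047078 had 1.58, 1.74 and 0.775 FPKM in golden libraries, against 1.63, 3.52 and 1.30 FPKM in greenish grey libraries. LOC113047081 had 1.28, 1.70 and 1.02 FPKM in golden libraries, against 1.68, 3.43 and 1.17 FPKM in greenish grey libraries. Both peaked in greenish grey library 2, and their log2 fold changes were -0.43 (SE 0.59) and -0.47 (SE 0.54). A further alpha chain, LOC113047083, had 1.44, 1.01 and 2.30 FPKM in golden libraries, against 1.76, 2.89 and 0.735 FPKM in greenish grey libraries, with a log2 fold change of -0.07 (SE 0.59).

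Summed over its 18 genes, the class II beta family had 18.1, 16.6 and 20.9 FPKM in golden libraries 1 to 3, against 25.3, 39.9 and 24.1 FPKM in greenish grey libraries 1 to 3. The groups did not overlap in these sums, but on scaled counts they did, since golden library 1 was above greenish grey library 3. Summed over its 12 genes, the alpha family had 15.5, 15.6 and 17.4 FPKM in golden libraries, against 21.0, 28.1 and 12.1 FPKM in greenish grey libraries, and the groups overlapped. The sum over all 145 genes was 1911, 2180.0 and 2418 FPKM in golden libraries, against 2530.0, 2934 and 2930.0 FPKM in greenish grey libraries, and did not overlap. Without the 3 invariant chain genes it was 1380.0, 1564 and 1955 FPKM in golden libraries, against 1675, 1556 and 2382 FPKM in greenish grey libraries, and overlapped. The separation of the overall sum was thus present only with the invariant chain included, but the invariant chain sum by itself overlapped. The 3 invariant chain genes summed to 531, 616 and 462 FPKM in golden libraries, against 854, 1378 and 549 FPKM in greenish grey libraries.

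The share of macrophage and dendritic cell markers lay lower in golden libraries as well, while the shares of T cell and B cell markers overlapped. The 72 gene rows of the macrophage and dendritic cell list, 25 of which had no count, made up 0.0163, 0.0145 and 0.0204% of all counts in golden libraries 1 to 3, against 0.0257, 0.0329 and 0.0262% in greenish grey libraries 1 to 3. Mannose receptor genes account for 55 of these rows, every listed product with a row had counts in each library, and CD83 matched no row. The shares did not overlap, but they are of unscaled counts and were not compared on scaled counts. Of the 12 tested markers, 11 had a negative log2 fold change, against 46.8% of all tested genes, with a median of -0.53, against 0.0311. None of the 12 had an unadjusted p under 0.05 without the block and 3 (25.0%) had with it, against 13.0% of all tested genes: MARCO (LOC113053426), the colony-stimulating factor 1 receptor LOC113113653 and the mannose receptor LOC113118118, all named after their values were seen. The scavenger receptor MARCO had 20.6, 16.5 and 15.6 FPKM in golden libraries, against 38.6, 55.9 and 22.0 FPKM in greenish grey libraries, highest in the same library as the invariant chains. The 32 rows of the T cell list made up 0.00218 to 0.00377% of all counts in golden and 0.00306 to 0.00591% in greenish grey libraries, and those of both colours overlapped. Of the 7 tested T cell markers, 6 had a negative log2 fold change, against the same 46.8% of all tested genes, with a median of -0.46. With the block, 1 of them (14.3%) had an unadjusted p under 0.05 in edgeR, against 13.0% of all tested genes. The 6 rows of the B cell list made up 0.000114, 0.000653 and 0.000323% of all counts in golden libraries 1 to 3, against 0.000579, 0.000572 and 0.000288% in greenish grey libraries 1 to 3, highest in golden library 2. The 1 tested B cell marker had a log2 fold change of -0.49. The part of these cells in the class II values was not tested, and in bulk skin fewer cells of a type and less RNA per cell cannot be told apart.

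The genes annotated as class II transcription factors did not go one way. The transactivator LOC113046967, on chromosome 28:15347468-15360896, had 1.77, 1.90 and 1.30 FPKM in golden libraries 1 to 3, against 2.91, 3.08 and 1.71 FPKM in greenish grey libraries 1 to 3. Library 3 was the lowest of each colour, the groups overlapped, and the log2 fold change was -0.46 (SE 0.41, adjusted p = 0.9998 by edgeR). Of the RFX1 genes, annotated as class II regulatory factors although RFX1 also acts on many other genes, LOC113058049 had 2.82, 4.04 and 2.06 FPKM in golden libraries, against 3.49, 1.56 and 1.86 FPKM in greenish grey libraries, with a log2 fold change of 0.49 (SE 0.50). LOC113097571 had 1.88, 1.98 and 2.49 FPKM in golden libraries, against 1.64, 1.54 and 2.10 FPKM in greenish grey libraries, with a log2 fold change of 0.41 (SE 0.26, adjusted p = 0.9998 by edgeR).

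**Figure D2:**
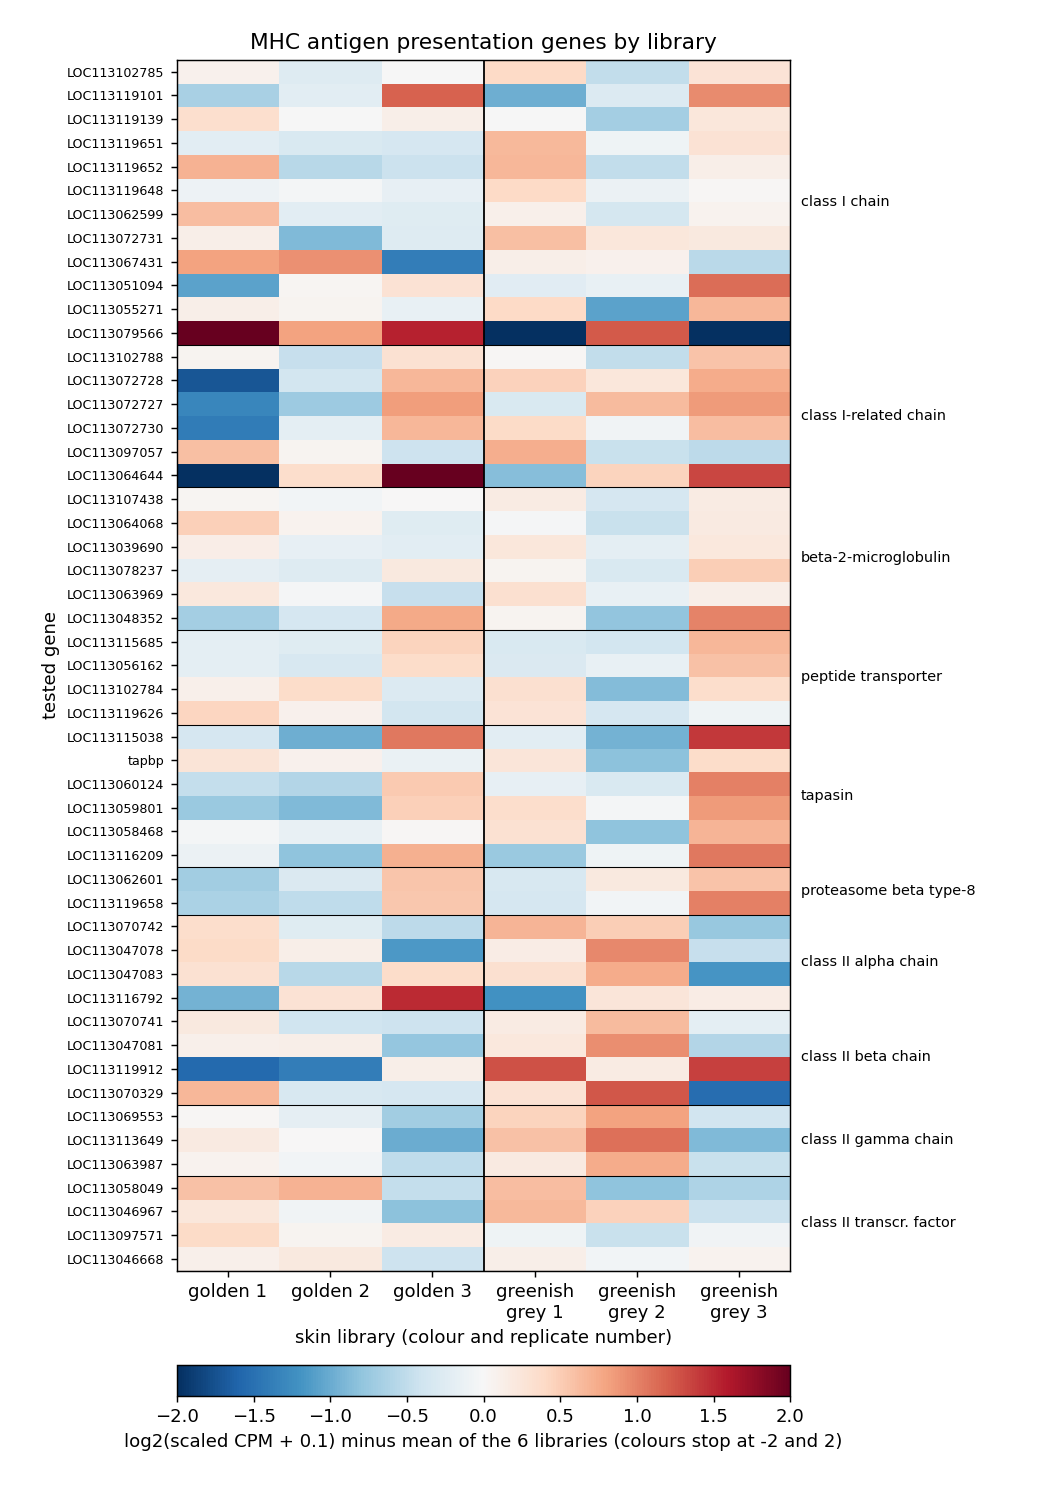
Relative level of each of the 51 tested genes (rows, grouped by family) in the 3 golden and 3 greenish grey libraries (columns), as log2(scaled CPM + 0.1), where CPM are counts per library size after scaling, minus the gene's mean over the 6 libraries, with red above and blue below the mean. The tapasin and proteasome beta type-8 rows are reddest in greenish grey library 3, and the class II gamma rows are reddest in greenish grey library 2 and blue in both libraries numbered 3.

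In the class I route, beta-2-microglobulin, the small chain shared by all class I molecules, was by far the most abundant product. The 3 leading genes lay within the same range of FPKM. LOC113107438, on chromosome 8:16990675-16993495, had 296, 367 and 441 FPKM in golden libraries 1 to 3, against 391, 336 and 493 FPKM in greenish grey libraries 1 to 3, and its log2 fold change was -0.02 (SE 0.32). LOC113064068, on chromosome 4:25880292-25881316, had 383, 382 and 357 FPKM in golden libraries, against 331, 296 and 477 FPKM in greenish grey libraries, with a log2 fold change of 0.20 (SE 0.34). LOC113039690, on chromosome 22:11247281-11250356, had 285, 303 and 344 FPKM in golden libraries, against 368, 330.4 and 458 FPKM in greenish grey libraries, with a log2 fold change of -0.16 (SE 0.34). Golden and greenish grey libraries overlapped for each of the 3. The whole family of 8 genes summed to 1366 ± 185 FPKM in golden and 1548 ± 364 FPKM in greenish grey libraries (SD, n = 3 each).

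Of the 39 class I heavy chains, which hold the peptide, 12 (30.8%) were tested, against 31.8% of the whole table. LOC113102785, on an unplaced scaffold, had 22.8, 23.9 and 33.0 FPKM in golden libraries 1 to 3, against 34.4, 22.5 and 39.8 FPKM in greenish grey libraries 1 to 3, with a log2 fold change of -0.16 (SE 0.31). LOC113119101, on chromosome 19:1142075-1146683, had 8.44, 15.1 and 46.1 FPKM in golden libraries, against 8.15, 16.1 and 38.9 FPKM in greenish grey libraries. Its level differed by replicate number far more than by colour, and its log2 fold change was 0.21 (SE 0.66). LOC113119139, on chromosome 19:2791237-2801748, had 10.6, 11.04 and 13.9 FPKM in golden libraries, against 10.2, 7.61 and 15.1 FPKM in greenish grey libraries, with a log2 fold change of 0.26 (SE 0.31). Together the 39 class I and 42 class I-related genes summed to 102 ± 39.4 FPKM in golden and 114 ± 34.2 FPKM in greenish grey libraries (SD, n = 3 each). Of the 18 tested, 7 had a positive and 11 a negative log2 fold change and none passed the test. Which copy a read from near-identical genes is given to is uncertain, and this bears on every single-copy value of the class I and class II chains.

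The peptide transporters, which feed class I molecules, overlapped between the colours as well. LOC113115685, a TAP1 on chromosome 16:1196763-1205856, had 4.51, 5.80 and 10.9 FPKM in golden libraries 1 to 3, against 5.09, 5.91 and 12.6 FPKM in greenish grey libraries 1 to 3, with a log2 fold change of -0.04 (SE 0.38). LOC113056162, a TAP2 on chromosome 37:10673270-10677974, had 2.81, 3.41 and 6.46 FPKM in golden libraries, against 3.23, 4.32 and 7.43 FPKM in greenish grey libraries, with a log2 fold change of -0.12 (SE 0.35). Both were highest in library 3 of each colour. The TAP2 beside the class I chain LOC113102785, LOC113102784, did not share this order: it had 1.72, 2.73 and 2.04 FPKM in golden libraries, against 2.44, 1.27 and 3.14 FPKM in greenish grey libraries, with a log2 fold change of 0.06 (SE 0.41).

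Proteasome beta type-8, the inducible cutting subunit, came mainly from LOC113062601, in the chromosome 44 group. It had 29.9, 52.6 and 109 FPKM in golden libraries 1 to 3, against 47.1, 81.3 and 110.3 FPKM in greenish grey libraries 1 to 3, with a log2 fold change of -0.24 (SE 0.42). LOC113119658, in the chromosome 19 group, had 2.27, 3.28 and 7.99 FPKM in golden libraries, against 3.40, 5.04 and 11.1 FPKM in greenish grey libraries, with a log2 fold change of -0.43 (SE 0.51). Each had its lowest value in library 1 and its highest in library 3 of both colours.

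Among the tapasins, tapbp itself was the most even of the 3 leading genes. The gene tapbp had 9.77, 11.4 and 11.4 FPKM in golden libraries 1 to 3, against 11.7, 6.77 and 16.0 FPKM in greenish grey libraries 1 to 3, with a log2 fold change of 0.06 (SE 0.36). LOC113115038, a tapasin-related gene on chromosome 15:10223695-10227436, had 7.84, 6.60 and 31.4 FPKM in golden libraries, against 10.3, 7.54 and 40.1 FPKM in greenish grey libraries, with a log2 fold change of -0.26 (SE 0.76). LOC113060124, on chromosome 41:13720774-13725679, had 2.58, 3.14 and 7.97 FPKM in golden libraries, against 3.90, 4.29 and 11.1 FPKM in greenish grey libraries, with a log2 fold change of -0.40 (SE 0.49). Products of the tapasin-related gene edit class I peptides in mammals, as tapasin does. All 6 tapasins were highest in greenish grey library 3 on scaled counts.

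**Figure D3:**
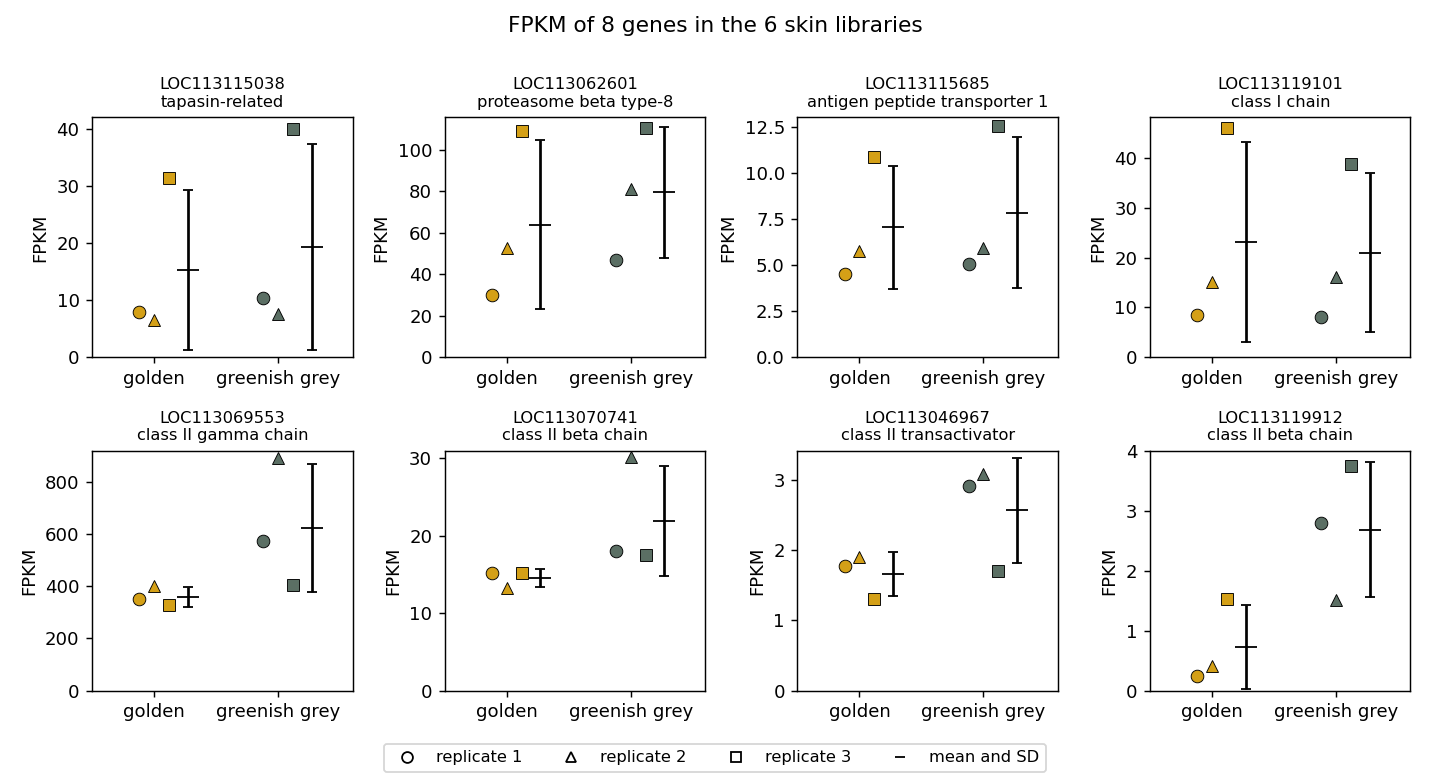
FPKM (y axis, from 0) of 8 genes in 3 golden and 3 greenish grey libraries, with the replicate number as the marker shape and the mean and SD beside each group; the genes were chosen after their values were seen to show both patterns. In the upper row (class I route) library 3 of each colour stands highest, at 31.4 and 40.1 FPKM for LOC113115038, and in the lower row golden values lie mostly below greenish grey ones, at 327 to 402 and 405 to 890.1 FPKM for the invariant chain LOC113069553.

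More of these genes passed a test between replicate numbers than between colours. When the 3 numbers were compared with colour in the model, 4 of the 51 genes (7.84%) differed at an adjusted p under 0.05, against 15.0% of all tested genes, and 18 at an unadjusted p under 0.05, against 36.6% of all tested genes. DESeq2 called 19 of the 51 (37.3%) at an adjusted p under 0.05, against 34.5% of all tested genes, so the share among these genes was below that of the table in edgeR and slightly above it in DESeq2. The deviations of same-numbered golden and greenish grey libraries from their group means correlated over the 51 genes with r = 0.477 for number 1 and 0.589 for number 3, but not for number 2 (r = -0.0443). This is a description across genes, which are not independent replicates. The 4 were the tapasin-related LOC113115038 (log2 difference of libraries numbered 3 over 1 1.51, edgeR adjusted p = 0.0222), the class I chain LOC113119101 (1.88, adjusted p = 0.0246), the tapasin-related LOC113060124 (1.09, adjusted p = 0.0409) and the proteasome beta type-8 gene LOC113119658 (1.28, adjusted p = 0.0449). All 4 belong to the class I route, and all were highest in libraries numbered 3. Most of the 51 tested genes belong to that route as well. They are 18 class I and class I-related chains, 6 beta-2-microglobulins, 6 tapasins, 4 peptide transporters and 2 proteasome beta type-8 genes. Next in order of p came the transactivator LOC113046967 (-1.08, adjusted p = 0.0556), which was lowest in libraries numbered 3, and a beta-2-microglobulin, LOC113048352 (1.17, adjusted p = 0.0588). This beta-2-microglobulin had 8.48, 14.2 and 35.7 FPKM in golden libraries 1 to 3, against 17.3, 11.6 and 41.5 FPKM in greenish grey libraries 1 to 3, and its log2 fold change between the colours was -0.21 (SE 0.57).

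By family, the median log2 difference of libraries numbered 3 over 1 was 1.18 for proteasome beta type-8, 1.17 for class I-related chains and 0.98 for tapasins. It was -0.85 for class II alpha chains, -0.70 for class II beta chains and -0.77 for invariant chains, against -0.04 over all tested genes. It was 0.29 for peptide transporters, -0.10 for beta-2-microglobulins and -0.24 for class I chains. The difference between the families was not tested. Of the 51 genes, 19 (37.3%) had their highest scaled count in greenish grey library 3, where 11.8% of all tested genes had theirs, and 23 had it in a library numbered 3, against 33.7% of all tested genes. A further 8 (15.7%) were highest in greenish grey library 2, against 11.9% of all tested genes. Among these 8 were the 3 invariant chains and 3 of the 4 tested class II beta chains. Of the 51 genes, 36 (70.6%) were highest in a greenish grey library, against 40.6% of all tested genes. Markers of several other tissues differed by number as well, in both directions. The median log2 difference of libraries numbered 3 over 1 was -2.31 for skeletal muscle markers and -4.48 for hemoglobin genes. It was 2.36 for granulocyte and 1.2 for epidermal markers. Macrophage and dendritic cell markers had -0.88, melanophore markers -0.69, T cell markers -0.45 and the 1 tested B cell marker -0.38. The share of hemoglobin genes was 1.68, 0.926 and 0.180% in golden libraries 1 to 3, against 2.18, 0.204 and 0.104% in greenish grey libraries 1 to 3. Granulocyte markers made up 0.00740, 0.0257 and 0.0391% of all counts in golden libraries 1 to 3, against 0.0108, 0.0149 and 0.0103% in greenish grey ones. A positive log2 fold change of golden over greenish grey skin was fitted for 7 of their 8 tested genes. For comparison, 46.8% of all tested genes had a negative one. The part of tissue makeup in the differences between numbers was not tested.

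**Figure D4:**
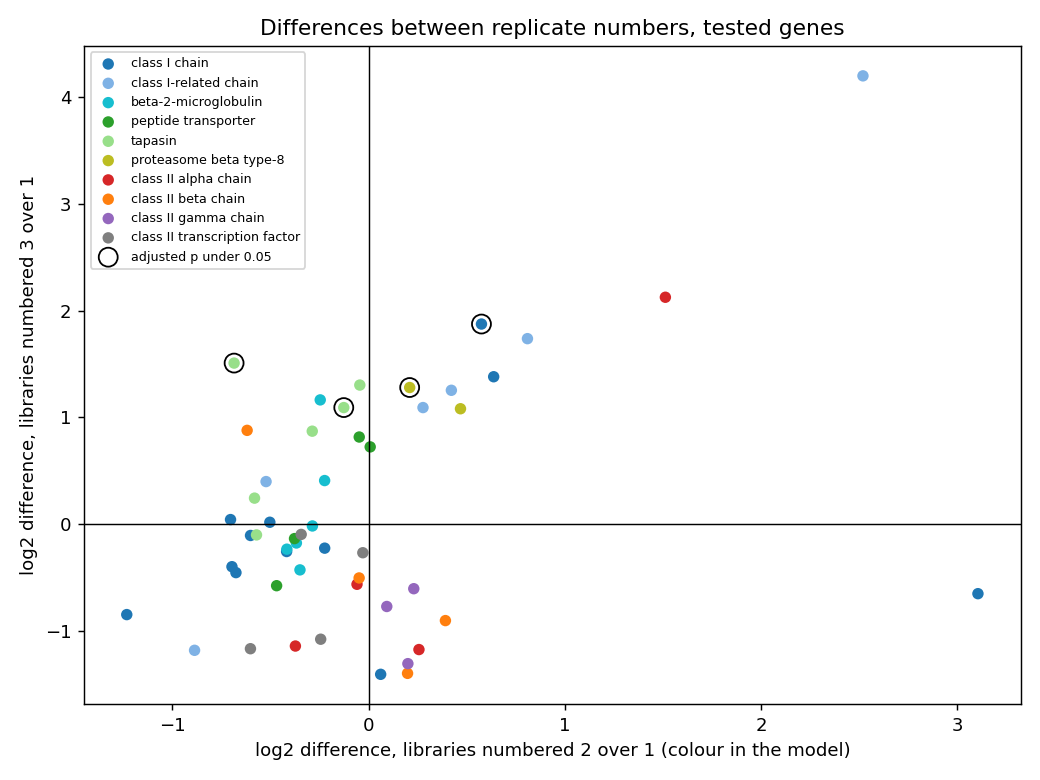
Log2 differences between replicate numbers for the 51 tested genes, with colour in the model: libraries numbered 2 over 1 on the x axis and 3 over 1 on the y axis, each point a gene, coloured by family, with black rings on the 4 genes at an adjusted p under 0.05. The ringed genes lie between 1.09 and 1.88 on the y axis, while the class II gamma chains lie below 0 on it.

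Other genes of the pathway, from a list of 101 rows that includes further proteasome subunits, chaperones, lysosomal proteases and interferon-responsive regulators, were read from the same fits. Of the 67 tested, none was higher past 2-fold at an unadjusted p under 0.05, against 1.26% of all tested genes, and 1 (1.49%) was lower, against 1.51%. An unadjusted p under 0.05 was reached by 3 (4.48%), against 4.40% of all tested genes, and with the replicate block by 6 (8.96%), against 13.0%. The log2 fold change was negative in 41 of the 67 (61.2%), against 46.8% of all tested genes. Its median was -0.11, against 0.0311 over all tested genes. Scaled counts were lower in golden skin in all 3 numbered pairs for 22 genes (32.8%), against 20.0%, and higher in all 3 for 8 (11.9%), against 19.5%. A greenish grey library was the highest for 43 genes (64.2%), against 40.6%. The lean below 0 was thus not particular to the MHC genes. The gene called was LOC113055679, a GILT (gamma-interferon-inducible lysosomal thiol reductase), which reduces disulfide bonds of engulfed proteins for the class II route, on chromosome 36:3494608-3497612. It had 0.827, 1.10 and 0.522 FPKM in golden libraries 1 to 3, against 8.86, 1.64 and 2.87 FPKM in greenish grey libraries 1 to 3. The groups did not overlap, greenish grey library 1 was far above the rest, and the log2 fold change was -2.36 (SE 0.81, edgeR unadjusted p under 0.05, adjusted p = 0.9998). The call was lost without greenish grey library 1, where the log2 fold change was -1.18, and without golden library 3, where it was -2.04.

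In the test of replicate number, 14 of the 67 genes (20.9%) had an adjusted p under 0.05 in edgeR, against 15.0% of all tested genes, and 36 (53.7%) in DESeq2, against 34.5%. Examples below were chosen after their values were seen. Proteasome beta type-9, the partner of beta type-8, lies near LOC113062601 on chromosome 44, and this gene, LOC113062602, had 12.8, 23.1 and 57.3 FPKM in golden libraries, against 19.5, 31.2 and 59.0 FPKM in greenish grey libraries (edgeR adjusted p = 0.0323 for number). The proteasome activator subunit LOC113072463 had 21.4, 45.2 and 93.8 FPKM in golden libraries, against 27.6, 54.0 and 110.1 FPKM in greenish grey libraries (edgeR adjusted p = 0.0303 for number). These genes shared with the proteasome beta type-8 and tapasin-related genes their highest level in library 3 of both colours.

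Several MHC genes were read in some libraries and had no count in others of similar depth. Among the 71 genes of the family with at least 50 counts in any library, 10 (14.1%) had 0 counts in another library, against 7.75% of all 37654 such rows of the table, a criterion chosen after the data were seen. The genes below are examples from these 10, picked with their counts in view. A count of 0 allows up to 3 counts, for counting error only. The TAP1 gene LOC113101282 had 74, 59 and 0 counts in golden libraries 1 to 3, against 104, 35 and 0 counts in greenish grey libraries 1 to 3, so that both libraries numbered 3 lacked it. In a fit without the minimum of 1 FPKM it differed by number at an adjusted p of 0.0374 (edgeR). That fit called 3 of 103 MHC genes (2.91%) for number, against 6.10% of all genes in it. Since LOC113101282 was picked for these counts, its p adds nothing to them. The class I chain LOC113079566 had 127, 66 and 159 counts in golden libraries, against 0, 113 and 0 counts in greenish grey libraries. The class I-related LOC113064644 had 0, 84 and 490 counts in golden libraries, against 28, 113 and 230 counts in greenish grey libraries. The class II beta chain LOC113070744, beside LOC113070741 on its scaffold, had 0, 0 and 4 counts in golden libraries, against 19, 51 and 7 counts in greenish grey libraries, and in the fit without a minimum its unadjusted p was under 0.05 and its adjusted p was 0.942 (edgeR). The proteasome beta type-8 gene LOC113102786 had 0, 28 and 121 counts in golden libraries, against 51, 77 and 121 counts in greenish grey libraries. Apart from LOC113070744, none of these separated the colours.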

How the data were processed

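The authors deposited a table of raw counts per gene, not normalized, and FPKM values (counts per unit of gene length and depth), for 3 golden and 3 greenish grey skin mRNA libraries. The aligner, counting tool, use of strand and treatment of reads that match several copies are not given in the sources used here. The deposited FPKM of 0.0001 at a count of 0 was set to 0. Rows matched RefSeq ASM336829v1 by gene ID (75749) or symbol (7339), each with the same start. Groups and numbers come from the titles.

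Counts were tested by the two-sided quasi-likelihood test of edgeR 4.0.16 (R 4.3.3; TMM factors, glmQLFit, glmQLFTest) on the 26421 genes that averaged 1 FPKM or more, with Benjamini-Hochberg adjustment over these genes and a model of colour alone. A further model held colour and replicate number. Beside the adjusted p, calls were counted at a fold change above 2 or below 0.5 with an unadjusted p under 0.05, the threshold used in the study. FPKM values carry no TMM scaling, so overlap between groups could differ between FPKM and scaled counts. The edgeR test of colour alone was tried on simulated counts that held no difference between replicate numbers, and the other fits were not. DESeq2 1.42.0, limma 3.58.1 on log2(FPKM + 1) and log2(FPKM + 0.1), no FPKM minimum and leaving out each library were alternatives; library totals alone and leaving out both libraries of a number were added after seeing the data. The members and gene lists were chosen with earlier results of these data known.

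Named genes were the members with a 2-fold call as above, the 3 tested members of highest mean FPKM in each functional group, the 6 of lowest p for replicate number, and pathway genes past the same 2-fold threshold. Text on any other gene says that it was picked with its values in view, or names it because it met a stated call or was an extreme. Same-numbered golden and greenish grey libraries deviated together from their group means over all tested genes (r = 0.656, 0.258 and 0.682 for numbers 1, 2 and 3), least for number 2. What a number marks is not given in the labels. Any pairing of the samples by number rests on the shared numbers and these correlations alone. For its small RNA libraries the study took both skin colours from one set of fish, and it does not say so for these mRNA libraries. The study places the golden regions on the back of the fish. The body site of these samples is not given in the labels, so colour and body site cannot be told apart. The 3 genes with an unadjusted p under 0.05 in the block fit were LOC113119912, LOC113119651 and the tapasin-related LOC113059801. Results for 1 pathway gene family are not reported here.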

Additional observations from a re-analysis of the deposited data

How the results depend on the processing

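Across the 15 alternative settings, no MHC gene reached an adjusted p under 0.05 for colour. The share of all tested genes that did so is given here for the main fit only. With the replicate block, 1 gene was lower and none higher past 2-fold, and the median log2 fold change was -0.165; the block changed no other 2-fold call. The count of genes lower past 2-fold was 1, and was 2 (1.94%, against 1.70% of all) without an FPKM minimum, 0 without both libraries numbered 1, 0 without both numbered 2 and 2 (3.92%, against 2.30% of all) without both numbered 3. Leaving out single libraries gave 0 to 4. The 4 (7.84%) arose without golden library 3, where 2.17% of all tested genes were called; the other single libraries gave 0 to 1 (1.96%), against 1.12 to 3.25% of all tested genes. The count higher past 2-fold was 0. It was 1 (1.96%) without both libraries numbered 2, against 0.466% of all tested genes. Leaving out single libraries gave 0 to 1. The 1 (1.96%) arose without greenish grey library 2, against 0.568% of all tested genes. In both settings the gene was LOC113079566, which had 0 counts in greenish grey libraries 1 and 3. The median of -0.189 was -0.318 on library totals alone, where the median of all genes was -0.093. On leaving out single libraries it ranged from -0.24 to 0.0454, and it was above 0 without greenish grey library 3. DESeq2 called 19 of the 51 genes (37.3%) for replicate number, against 34.5% of all tested genes. The main edgeR fit called 4 (7.84%), against 15.0%, so the comparison with the table turned in DESeq2. It did not turn in edgeR without an FPKM minimum, which called 3 of 103 (2.91%), against 6.10% of all genes. The pathway count was 36 in DESeq2 and 14 in the main edgeR fit. The pathway count of 1 was 2 (2.99%) with limma on log2(FPKM + 0.1), against 2.35% of all tested genes. It was 2 (2.99%) on library totals alone, against 2.38%, and 0 without both libraries numbered 3, against 2.30%. Leaving out single libraries gave 0 to 2, with 2 (2.99%, against 2.04%) without greenish grey library 3. Without both libraries numbered 1, LOC113055679 was not called. The 1 pathway gene called there was LOC113065776, a proteasome beta type-6 gene higher in golden skin. The cause of these shifts was not tested. Of 420 values for the 28 named genes, 410 kept their side of the threshold and 10 no longer passed it, all of them for LOC113119912 and LOC113055679, and 14 genes changed sign at least once without a call. With 3 libraries a colour and SEs of mostly 0.3 to 0.8 on the log2 scale, small differences were not detectable.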
